A study of Mus musculus with 15 samples.

Results

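Of 33334 distinct HindIII fragments scored with a captured promoter in mouse hippocampal neuronal nuclei, 30748 were listed with exactly 1 promoter, and 659 of these held an interaction score in 6 or more of the 15 libraries. These 659 recurrent fragments are 2.14% of the fragments listed with 1 promoter, and they belonged to 552 of 4429 promoters. They were chosen by the presence of a score, so how often they were scored is given as a description and supports nothing here. Fragments listed with several promoters, 2586 in all, were set aside, because a score there cannot be assigned to 1 promoter.

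Promoters meet distant DNA when the chromatin fibre loops back on itself, and regulatory elements brought close in this way can raise or lower transcription. Promoter-capture Hi-C fixes chromatin, cuts it, joins ends that lay close together and enriches the joined molecules that hold a chosen promoter, so each listed fragment is a piece of DNA found joined to that promoter. In neurons, such contacts have been studied as a way by which activity could alter gene expression over time.

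The libraries came from nuclei sorted with antibodies against NeuN, a neuronal protein, and GFP, which also detects the yellow fluorescent label. All mice were ArcCreERT2 animals crossed with the R26R-STOP-floxed reporter of yellow fluorescent protein (eYFP), with the genotype given as +/+, so that the label depends on the Arc promoter and on 4-hydroxytamoxifen, given 1 h before contextual fear conditioning. There were 3 Basal, 4 Early, 4 Late and 4 Reactivated libraries. Each condition drew 10000 nuclei from the pooled hippocampi of 10 to 12 mice. Brains were taken either 1.5 to 2 h or 5 days from the task, in the second case with or without a new exposure to the cue, but the labels do not state which interval or exposure belongs to which group title, how Basal mice were treated, or the age of the mice. Positions of fragments are on genome build mm9, and a score is a whole number of 2 or more whose exact unit the labels and headers leave unstated.

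The promoter ends of the most recurrent contacts are shown first, to show the DNA just before the starts of the genes whose promoters these contacts are listed for. Fragments of Kcna1, Trim28 and Zfp687 were scored in 14 libraries and those of Enah and Ptpn7 in 13. The lines give the 250 bases before the RefSeq start on the strand of the gene, from build GRCm38.p6, whose coordinates cannot be set beside the mm9 positions of the fragments. Kcna1 is named only. For Zfp687 and Ptpn7 the table of starts holds 2 entries and the first is shown, and which start was baited is not known here. Capitals mark GC boxes (GGGCGG on either strand), a motif bound by Sp1-family factors. The windows are chr7:13023902-13024151 on the plus strand for Trim28, chr3:95015458-95015707 on the minus strand for Zfp687, chr1:182019981-182020230 on the minus strand for Enah and chr1:135132450-135132699 on the plus strand for Ptpn7.
Trim28: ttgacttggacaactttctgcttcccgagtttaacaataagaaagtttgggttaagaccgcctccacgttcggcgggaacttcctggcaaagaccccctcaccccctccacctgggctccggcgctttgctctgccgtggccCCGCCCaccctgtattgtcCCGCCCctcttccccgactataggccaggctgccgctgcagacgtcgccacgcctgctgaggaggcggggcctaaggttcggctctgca
Zfp687: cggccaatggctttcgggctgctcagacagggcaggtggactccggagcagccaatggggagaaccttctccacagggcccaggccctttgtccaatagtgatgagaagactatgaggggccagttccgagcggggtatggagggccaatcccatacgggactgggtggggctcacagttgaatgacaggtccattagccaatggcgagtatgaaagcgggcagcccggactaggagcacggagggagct
Enah: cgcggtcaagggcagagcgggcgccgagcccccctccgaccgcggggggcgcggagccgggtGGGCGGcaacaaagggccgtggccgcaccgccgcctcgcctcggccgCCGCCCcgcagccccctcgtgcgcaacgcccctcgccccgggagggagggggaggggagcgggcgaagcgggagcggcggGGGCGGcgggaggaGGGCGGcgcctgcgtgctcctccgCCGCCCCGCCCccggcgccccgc
Ptpn7: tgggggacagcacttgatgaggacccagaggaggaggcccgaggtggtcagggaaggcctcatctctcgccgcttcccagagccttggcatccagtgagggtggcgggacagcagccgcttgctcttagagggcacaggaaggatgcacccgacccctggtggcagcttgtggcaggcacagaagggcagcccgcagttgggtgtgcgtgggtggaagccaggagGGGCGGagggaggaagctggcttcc

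The G and C content of these windows was 62.0% for Trim28, 60.4% for Zfp687, 84.8% for Enah and 66.0% for Ptpn7, and they held 17, 10, 42 and 9 CpG pairs in the same order. GC boxes matched at 2, 0, 6 and 1 places, 2 of the 6 in Enah overlapping each other. A GC box lies in 32.9% of 27025 RefSeq promoter windows of this length, taking the first start of each gene. Neither the full cAMP response element (TGACGTCA, its own reverse) nor a HindIII site (AAGCTT, likewise) was present in any of the 4. The first lies in 1.62% of the 27025 windows and the second in 6.16%. Of the 552 promoters with a recurrent fragment, 402 (72.8%) matched this table by symbol, under the 80% set here for a share over a group of genes, so none is given for them.

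From 2 libraries onward, the number of fragments dropped at each step up to 11. Among fragments listed with 1 promoter, 11421 were scored in 1 library, 12404 in 2, 3458 in 3, 1978 in 4 and 828 in 5. Just inside the limit of 6 libraries stood 334 fragments, with a median score of 171 over them, and just outside stood the 828 in 5 libraries, with a median score of 157. Further in, 176 fragments were scored in 7 libraries, 70 in 8, 40 in 9, 21 in 10, 5 in 11, 8 in 12, 2 in 13 and 3 in 14. None was scored in all 15.

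**Figure D1:**
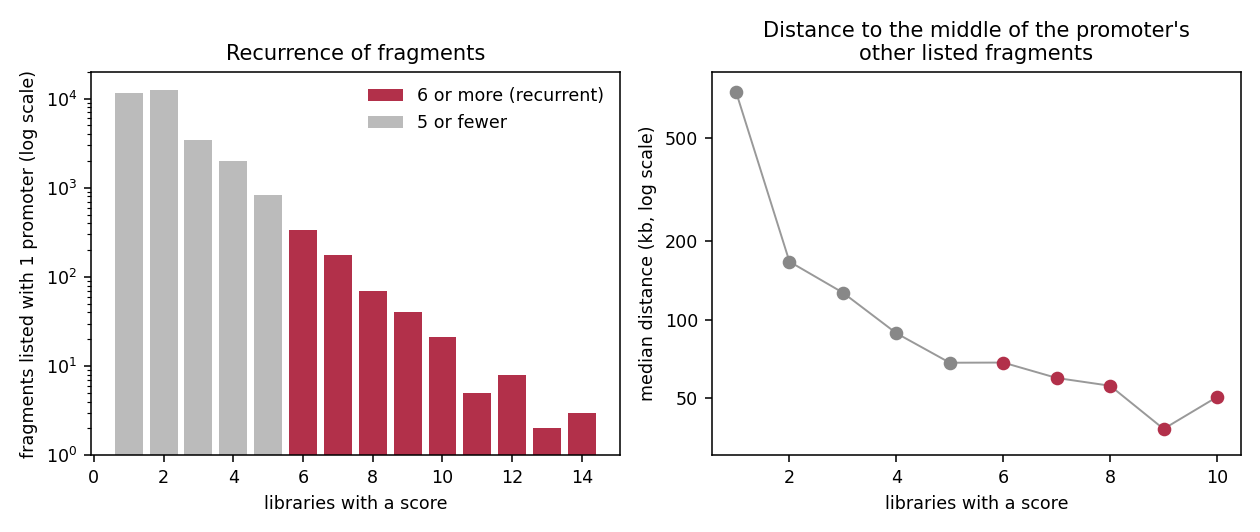
Left, number of fragments listed with 1 promoter (log axis) by the number of libraries that score them, with those in 6 or more libraries in red. Right, median distance in kb (log axis) from a fragment to the middle of the other listed fragments of its promoter, for bins of 20 fragments or more; it is 753 kb at 1 library, 68.3 kb at 6 and 50.3 kb at 10.

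The libraries did not contribute equally. Basal libraries scored 341 ± 17.4 of the recurrent fragments (SD, n = 3). Early libraries scored 336 ± 141, Late libraries 303 ± 222 and Reactivated libraries 251 ± 270 (SD, n = 4 each). Reactivated libraries 1 and 2, which listed 32 and 335 fragments in all, scored 3 and 32 of the 659, whereas Reactivated libraries 3 and 4 scored 483 and 487. Late libraries 1 and 2 scored 110 and 112, against 494 and 497 in Late libraries 3 and 4, and Early library 2 scored 143. The groups thus overlapped in this count, and the spread within Early, Late and Reactivated was larger than any difference between group means. The sum of scores was lowest in Reactivated library 1, at 3097, and highest in Reactivated library 4, at 8218430, and the number of reads behind a library is unknown here.

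**Figure D2:**
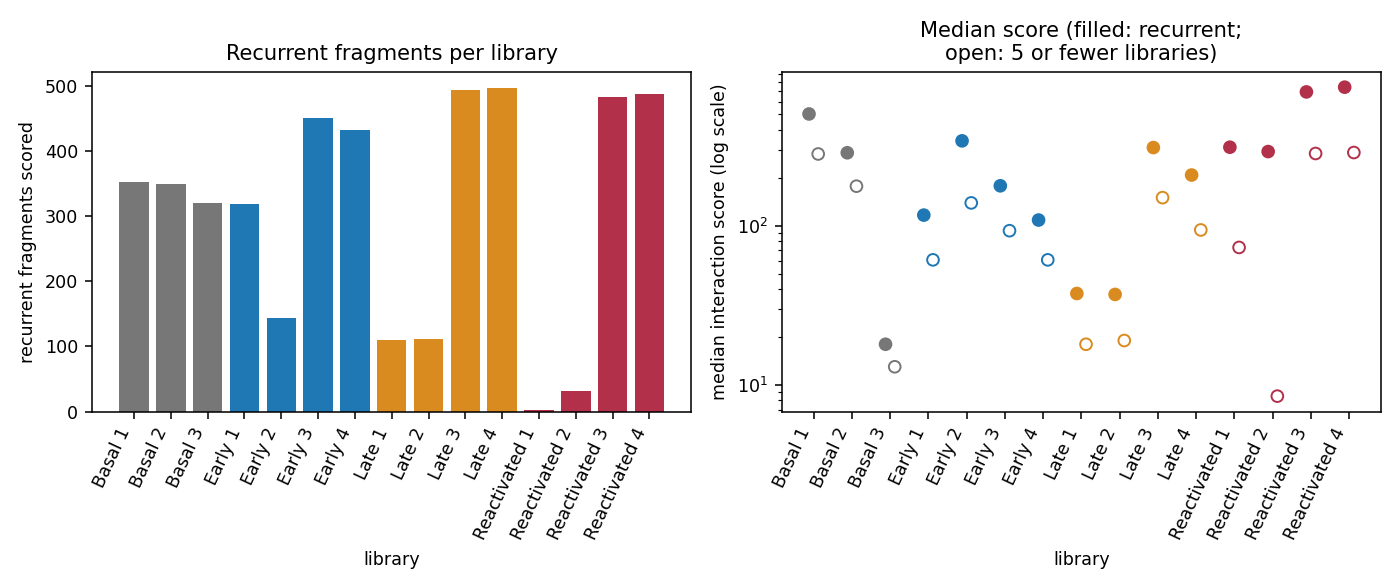
Left, number of the 659 recurrent fragments scored in each library. Right, median interaction score (log axis) of recurrent fragments (filled) and of fragments in 5 or fewer libraries (open) in each library, coloured by group; the filled point is the higher in each of the 15 libraries.

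Pairs of libraries within a group could be near copies of each other in what they listed. Libraries of a group in which the smaller shared at least 40% of its fragments with the larger were joined into a set, which gave 9 sets, 3 of them in Early and 2 in each of the other groups. The 6 pairs joined (libraries 1 and 2 of Basal, Late and Reactivated, and 3 and 4 of Early, Late and Reactivated) shared 48.3% to 100% of the smaller library, while the other 15 pairs within groups shared 7.71% to 16.7%. A fragment scored in 6 libraries may therefore come from few separate sets. Of the 659, 135 were scored in 3 sets, 343 in 4, 116 in 5, 42 in 6, 13 in 7, 7 in 8 and 3 in all 9. The design text calls the replicates biological but does not say which animals went into which library, so p-values measure only the spread between these libraries.

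At least 1 Basal library scored 517 of the recurrent fragments, at least 1 Early library 582, at least 1 Late library 544 and at least 1 Reactivated library 502. All 4 groups scored 201 of them (30.5%), or 107 where Basal library 3 was left out, 3 groups scored 425 and 2 groups 33. Of those in 3 groups, Basal was the group without a score for 129, Early for 63, Late for 106 and Reactivated for 127. A group has at most 4 libraries, so the rule itself forces at least 2 groups.

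The contacts scored in 14 libraries reached every set. The fragment of Trim28, which encodes a corepressor recruited by zinc finger proteins, lies on chromosome 7 from 13612837 to 13615593. It had no score in Basal library 1 and scores of 1321 and 156 in Basal libraries 2 and 3, then 681, 2030, 1459 and 820 in Early, 1326, 1724, 3110 and 2287 in Late and 451, 1369, 2799 and 3491 in Reactivated. Trim28 and Nfxl1 had the only 2 recurrent fragments scored in every Reactivated library, the sparse libraries 1 and 2 included. Every Late score lay above both Basal scores, while Early and Reactivated each overlapped with the other groups.

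The fragment of Zfp687, a zinc finger protein gene, lies on chromosome 3 from 94821031 to 94823788. Its scores were 1626, 958 and 64 in Basal, 2139, 6057, 3379 and 1968 in Early, and 1915, 2334, 3862 and 2770 in Late. In Reactivated it was unscored in library 1 and had 450, 7844 and 7080 in libraries 2 to 4. All 4 Early and all 4 Late libraries lay above the 3 Basal ones, whereas the Reactivated scores included both the highest of all 14 and, in the sparse library 2, one below every score outside Basal library 3.

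The Kcna1 fragment, whose gene makes a potassium channel that limits neuronal firing, lies on chromosome 6 from 126598328 to 126600290. Its scores were 1376, 824 and 111 in Basal, 347, 662, 667 and 338 in Early, 2737, 3369, 441 and 365 in Late, and 326, 2598 and 3219 in Reactivated libraries 2 to 4, with none in library 1. Late libraries 1 and 2 were high and Late libraries 3 and 4 low, and Late overlapped with each of the other groups.

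Fragments in 13 libraries belonged to Enah, which encodes an actin regulator of the Ena/VASP family, and Ptpn7, a tyrosine phosphatase gene. The Enah fragment, on chromosome 1 from 183953195 to 183955985, had 659, 2016 and 91 in Basal, 778, 1563 and 957 in Early libraries 1, 3 and 4, 1976, 2531, 3248 and 2379 in Late and 347, 5069 and 5647 in Reactivated libraries 2 to 4. The Ptpn7 fragment, on chromosome 1 from 137025687 to 137028767, had 174, 115 and 113 in Basal, 334, 1067, 3145 and 1741 in Early, 899, 1067, 2638 and 1777 in Late and 764 and 1030 in Reactivated libraries 3 and 4. For Ptpn7, the 3 Basal scores as listed were the lowest of all 13. Libraries differ in level, however, with a median score over all listings of 13 in Basal library 3 and of 308 and 313 in Reactivated libraries 3 and 4. For Enah, Early library 2 and Reactivated library 1 held no score.

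Each of the 8 fragments in 12 libraries was missing from at least 1 whole set. Those of Anxa6, an annexin gene, and Cldn12, a claudin gene, had no score in Reactivated libraries 3 and 4, the libraries with most fragments. The Anxa6 fragment, on chromosome 11 from 54847279 to 54854732, had 935 and 47 in Basal libraries 2 and 3, 955, 528, 787 and 429 in Early, 4876, 5746, 4182 and 2763 in Late and 311 and 984 in Reactivated libraries 1 and 2. Each Late score as listed was above every score of the other groups. The median score over all listings was 10 in Reactivated library 2, against 160 and 99 in Late libraries 3 and 4. The fragments of Nfxl1 and Ppp4r2, a regulatory subunit gene of a protein phosphatase, had no score in Late libraries 1 and 2, and that of Scg3, which encodes a protein of neuronal secretory granules, none in Basal libraries 1 and 2. Strap, Synpo2l and Ap1g2, an adaptor protein gene of vesicle sorting, had no score in Reactivated libraries 1 and 2. Strap and Synpo2l also had none in Basal library 3, and Ap1g2 and Nfxl1 none in Early library 2, each of these libraries being a set by itself. The Strap fragment had 10 and 14 in Late libraries 1 and 2 against 4329 and 3387 in Late libraries 3 and 4.

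**Figure D3:**
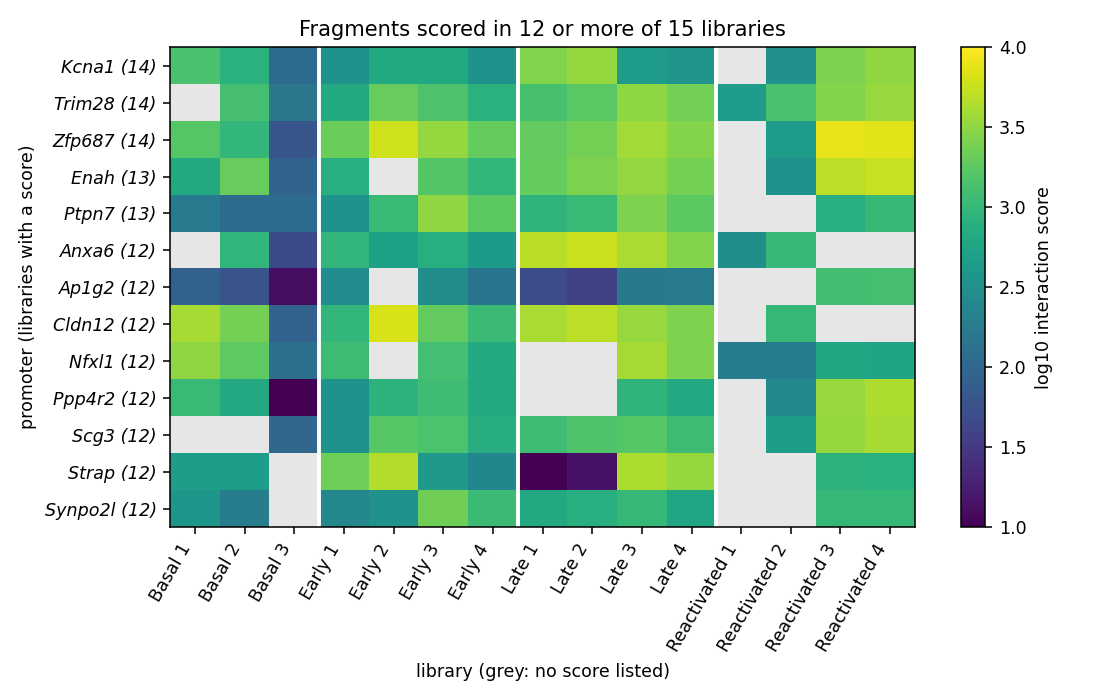
Interaction score (log10 colour scale, grey where none is listed) of the 13 fragments scored in 12 or more libraries, by promoter (rows, with the number of libraries) and library (columns in group order). Neighbouring columns of a set resemble each other, and Reactivated library 1 holds 3 scores.

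Most promoters had a single recurrent fragment: 460 had 1, 79 had 2, 11 had 3 and 2 had 4. The promoters with 4 were Fgf18, a growth factor gene, and Syne1, which encodes the nuclear envelope protein nesprin. Those of Syne1 lay within 106.5 kb on chromosome 10 among 32 listed fragments, and each was scored in 6 or 7 libraries and in 4 sets. The Syne1 fragment from 4908839 to 4909836 had 9 in Basal library 3, 145 and 95 in Early libraries 3 and 4, 1465 and 1132 in Late libraries 3 and 4 and 1836 and 2354 in Reactivated libraries 3 and 4. None of the 4 Syne1 fragments was scored in Late library 1 or 2.

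The Fgf18 fragments lay on chromosome 11, 3 of them between 33037191 and 33064450 and the other 423766 bp away. The fragments from 33040017 to 33051142 and from 33051154 to 33064450, 11 bp apart, had the same score in 5 libraries: 107 in Basal library 2, 347 and 180 in Early libraries 3 and 4 and 789 and 569 in Late libraries 3 and 4. These 2 fragments may therefore not be separate measurements in those libraries. Among all 51 neighbouring pairs of a promoter more than 2 and at most 1000 bp apart with a recurrent fragment in the pair, this one included, 7 of 122 jointly scored values (5.74%) were equal. Among 225 such pairs that adjoined directly, 0 of 465 were. The fragment from 33037191 to 33039624, had 2656 and 2730 in Reactivated libraries 3 and 4 and at most 112 elsewhere.

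Promoters with 3 recurrent fragments included E2f6, a repressor of the E2F family, Kif26a, a kinesin-family gene, and Lmnb2, which encodes a nuclear lamin. Their fragments spanned 140.5 kb, 341 kb and 135 kb, and each was scored in 6 or 7 libraries. The E2f6 fragment on chromosome 12 from 16934662 to 16935449 had 1010, 553 and 10 in Basal, 654 in Early library 2 and 454 and 289 in Late libraries 3 and 4, and no score in Reactivated. The E2f6 fragment from 17044445 to 17051492 had 455 and 261 in Basal libraries 1 and 2, 15 and 20 in Early libraries 1 and 3 and 249 and 206 in Reactivated libraries 3 and 4, and no score in Late. The Kif26a fragment from 113347426 to 113350184 had 460, 229 and 44 in Basal, 81 in Early library 1 and 1832 and 2058 in Reactivated libraries 3 and 4, and no score in Late. These E2f6 fragments thus differed in which of Late and Reactivated scored them.

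Recurrent fragments of a promoter often lay close together. The 107 gaps between neighbouring recurrent fragments of the same promoter had a median of 19.9 kb, with quartiles of 3.62 and 90.4 kb. Leaving out Reactivated library 3 or 4 gave 56.8 kb, leaving out Late library 3 or 4 gave 31.1 or 31.5 kb, and leaving out Basal library 1 gave 12.3 kb. In 14 of them the fragments were direct neighbours, which in these coordinates leaves a gap of 2 bp, 20 gaps were at most 1000 bp and 39 at most 10000 bp. Direct neighbours included those of Scg3, from 75526100 to 75528831 and from 75528834 to 75531379, of Sms, the spermine synthase gene, and of Smox, the spermine oxidase gene. The largest gap belonged to Trim28, whose other recurrent fragment, on chromosome 7 from 50861595 to 50869445, lay 37246001 bp away. It had 88 and 41 in Basal libraries 1 and 2, 101, 85 and 39 in Early libraries 1, 3 and 4, 38 in Late library 1 and none in Reactivated.

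With respect to all listed fragments of their promoter, recurrent fragments were close to the others. The distance from a fragment to the middle of the other listed fragments of its promoter had a median of 59.4 kb for the 655 recurrent fragments that had another fragment listed, beside 225 kb for 29816 fragments scored in 5 or fewer libraries. Of the 659, 236 (35.8%) directly adjoined another listed fragment of the same promoter, beside 13.6% of the fragments in 5 or fewer libraries. The nearest listed fragment of the same promoter lay at a median of 2.67 kb for the recurrent fragments and 41.0 kb for the others. The median distance to the middle was 753 kb at 1 library, 167 kb at 2, 127 kb at 3, 88.6 kb at 4, 68.2 kb at 5, 68.3 kb at 6, 59.6 kb at 7 and 55.6 kb at 8. These are descriptions of 1 table, with no test, since fragments of a promoter share their bait and libraries. The distance from the promoter itself was not computed, because bait positions were not used here.

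Fragment length had a median of 3189 bp (quartiles 1548 and 5614.5 bp) for recurrent fragments and 2918 bp (1378 and 5507 bp) for those in 5 or fewer libraries. Every chromosome except Y held recurrent fragments, from 16 on X to 62 on chromosome 11. Their share of the fragments listed with 1 promoter was lowest on chromosome 6, at 1.62%, and highest on chromosome 11, at 3.38%. The promoters of recurrent fragments had a median of 14 listed fragments counted per recurrent fragment, beside 12 for the others.

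Where they were scored, recurrent fragments scored higher than the rest of the same library. The ratio of the median score of recurrent fragments to that of fragments in 5 or fewer libraries was 1.38 to 1.78 in the Basal libraries, 1.78 to 2.45 in Early and 1.95 to 2.21 in Late. In Reactivated it was 2.44 and 2.57 in libraries 3 and 4, and 4.26 and 34.4 in the sparse libraries 1 and 2. The direction was the same in 15 of 15 libraries. The median percentile rank of a recurrent fragment within its library was 62.5 to 94.3, beside 47.2 to 55.7 for the others. A score has to be listed to count, so level and recurrence are not independent and no test was made.

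Scores of 1 fragment were stable within a library set and varied widely outside it. To set libraries side by side, the log2 score was centred on the median of its library. Over the 659 fragments the mean absolute difference between 2 libraries of the same set had a median of 0.23. Between sets of the same group, where 456 fragments had such a pair, it was 1.66, and between groups it was 1.79. For the 5 pairs of the same set with 20 fragments or more in common, 95.4% to 98.8% of fragments were within 2-fold after centring. For the 13 pairs of the same group but other sets this was 19.0% to 44.9%, and for 68 pairs from different groups 8.70% to 45.8%. If scores were counts, which is not known, the libraries of a set would differ beyond counting error, with chi-square over degrees of freedom of 5.77 to 19.5 in those 5 pairs. Libraries of a set entered the tests below one by one and, as an alternative, as 1 mean.

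**Figure D4:**
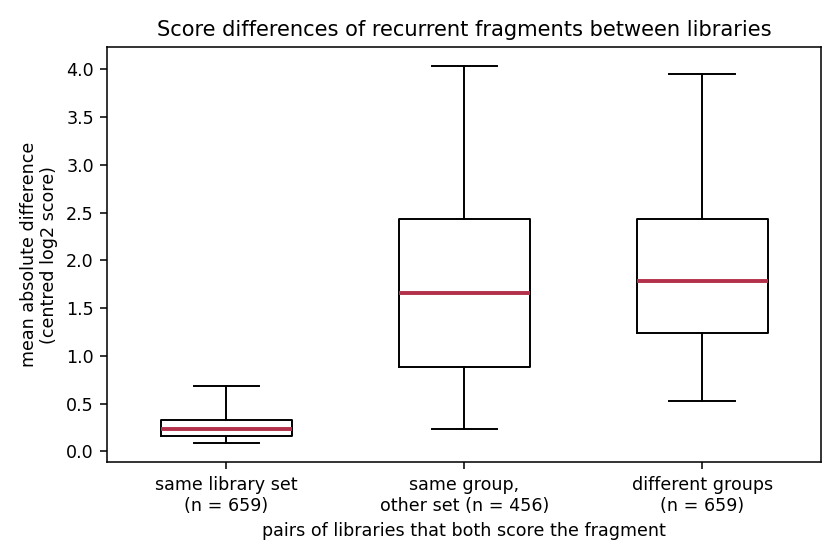
Mean absolute difference in centred log2 score per recurrent fragment between libraries of the same set, of the same group but another set, and of different groups. Boxes show quartiles with the median in red (0.23, 1.66 and 1.79), whiskers the 5th and 95th percentiles, and n the number of fragments.

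No tie between group and score was detected over the 9 sets. Taking the sets as units, the mean over pairs of sets of the median absolute difference in centred log2 score was 1.64 within groups and 1.76 across groups, a difference of -0.12 (exact two-sided permutation p = 0.553 over 7560 assignments, adjusted p = 0.763 over 2 tests, the other being of shared presence). The number of recurrent fragments scored by both sets, relative to independent placement over the 659, was 1.03 within groups and 1.10 across groups, and 1.06 and 0.938 without the set of Reactivated libraries 1 and 2. Presence chose the fragments, so these ratios are a description and nothing is read from them.

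The spread of a fragment's centred log2 score over its scored libraries had a median SD of 1.40 (quartiles 0.958 and 1.86). In 828 fragments scored in 5 libraries the median was 1.22. The lowest and the highest score differed by 10-fold or more in 542 of the 659 fragments, before any scaling between libraries. Every score was 5 or more in 610 of them.

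The steadiest recurrent fragment was that of Pik3c2a, a phosphoinositide kinase gene, on chromosome 7 from 123480233 to 123485651, with an SD of 0.11. Its scores were 409 and 239 in Basal libraries 1 and 2, 123 and 73 in Early libraries 3 and 4 and 190 and 108 in Late libraries 3 and 4, and it was unscored in Reactivated. Those of Atp5d, an ATP synthase subunit gene, Kcnf1, a modifying potassium channel subunit gene, and Cnbp, a nucleic acid binding protein gene, had SDs of 0.15, 0.21 and 0.24. The Cnbp fragment, on chromosome 6 from 87793675 to 87799460, had 377, 411 and 221 in Early libraries 1, 3 and 4, 601 and 379 in Late libraries 3 and 4 and 1308 and 1366 in Reactivated libraries 3 and 4. Each of these 4 fragments came from 3 or 4 sets, which leaves few separate values behind a small SD.

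At the other end stood fragments with very high scores in 1 set and scores near the lowest listed in another. The fragment of Cckbr, the cholecystokinin B receptor gene, on chromosome 7 from 112615334 to 112619028, had 108 and 50 in Basal libraries 1 and 2, 3 and 5 in Late libraries 3 and 4 and 8978 and 9517 in Reactivated libraries 3 and 4, an SD of 4.54. Fragments of Klhl31 and of Pak1, a kinase gene of spine actin dynamics, had 2 to 3 in Late libraries 3 and 4 and 4599 to 5601 in Reactivated libraries 3 and 4. The reverse was seen for Cables1 and Zcchc11, with scores of 2 to 9 in Reactivated libraries 3 and 4. Late libraries 1, 3 and 4 scored the Cables1 fragment at 1262, 663 and 231, and the Basal libraries scored that of Zcchc11 at 1298, 743 and 12. Their SDs were 4.19, 4.13, 4.22 and 3.93 in the order Klhl31, Pak1, Cables1 and Zcchc11.

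Among the 201 fragments scored in all 4 groups, the range of the 4 group means of centred log2 score had a median of 3.18 and quartiles of 2.16 and 4.44. It was at most 1 in 12 of them. The smallest range was that of Sms, on chromosome X from 153922928 to 153925219, at 0.28, and the next that of Dnajc5, which encodes a synaptic vesicle chaperone, at 0.36. The Sms fragment had 1225 and 777 in Basal libraries 1 and 2, 311, 248 and 138 in Early libraries 1, 3 and 4, 522 and 385 in Late libraries 3 and 4 and 1095 and 978 in Reactivated libraries 3 and 4. The largest was that of Hdac4, a class IIa histone deacetylase gene, at 11.69, where the only Late score was 2, in library 4, the only Reactivated score was 669, in the sparse library 2, and Early library 3 had 1544. Basal had the highest mean in 35 of the 201, Early had it in 27, Late had it in 61 and Reactivated had it in 78. The lowest mean was in Basal for 60, in Early for 49, in Late for 45 and in Reactivated for 47. A group mean weighs its scored sets alike, the sparse set of Reactivated libraries 1 and 2 included. Sms, Dnajc5 and Hdac4 were singled out after their values were seen.

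Group differences of single fragments were tested with limma on the asinh of the score, a log-like scale that keeps an unlisted score at 0, over all 36353 listings of a promoter with a fragment. Over the 4 groups, 0 of the 659 recurrent fragments passed an adjusted p of 0.05, against 0% of all listings. An unadjusted p under 0.05 was found for 44 (6.68%), beside 21.1% of all listings. An unlisted score enters as 0, and the rule chose fragments by the presence of scores. The limma shares of recurrent fragments and of all listings, here and below, are therefore not comparable. With each library set entered as a single mean, 0 had an unadjusted p under 0.05. Without Reactivated libraries 1 and 2, which leaves Reactivated with a single library set, 140 recurrent fragments (21.2%) passed, beside 25.5% of all listings. It was 44 without Basal library 3, 7 without Early library 1 and 7 without the variance trend, beside 5.69%, 0.666% and 0.55% of all listings. Leaving out Basal library 3 likewise leaves Basal with a single library set.

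The group names set Early beside Basal as the first stage after the baseline. The mean asinh score was higher in Early for 325 recurrent fragments and lower for 333, with a median difference of -0.05. The fragment of Skp1a, a ubiquitin ligase subunit gene, on chromosome 11 from 52047042 to 52050528, had 496, 2494, 1051 and 618 in Early and no score in Basal. It also had 2473 and 1804 in Late libraries 3 and 4 and 643, 4233 and 4839 in Reactivated libraries 2 to 4. The fragment of Pcdh11x, a protocadherin gene, on chromosome X from 117406315 to 117408095, had 650, 403, 2946 and 1508 in Early and no score in Basal, and that of Adam29 had 480, 3905, 571 and 290 in Early and none in Basal.

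In the other direction, the fragment of Lrp12, a gene of the LDL receptor family, on chromosome 15 from 39759170 to 39763606, had no score in Early and 1496, 829 and 30 in Basal. That of Gltpd2 had none in Early and 1822, 1157 and 12 in Basal, and that of Ppp1r9b, which encodes the spine scaffold spinophilin, had none in Early and 1888, 877 and 66 in Basal. In each of these the lowest Basal score was in library 3, whose scores were low throughout, with a median of 13 over all listings. Every Early library was above every Basal library in 43 recurrent fragments (6.53%) and below in 34 (5.16%), beside 0.157% and 0.979% of all listings. A fragment in fewer libraries can rarely meet this, so the shares are not comparable.

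None of these differences passed. On the asinh scale the difference was 7.55 ± 3.35 (standard error) for Skp1a, with an adjusted p of 0.416 by limma, and -6.50 ± 2.59 for Lrp12, with an adjusted p of 0.329 by limma. The Atmin fragment, on chromosome 8 from 119468235 to 119468601, had the largest difference of those named, 7.87 ± 2.93 (standard error). Of the 659, 0 had an adjusted p under 0.05 (0% of all listings). An unadjusted p under 0.05 was found for 71 (10.8%), beside 10.6% of all listings. With each library set as a single mean, 0 of the 659 had an unadjusted p under 0.05 in this comparison. Without Basal library 3, which leaves Basal with a single library set, 34 recurrent fragments (5.16%) passed, beside 5.76% of all listings. Of these 34, 28 were lower in Early. Without Reactivated libraries 1 and 2, without the variance trend and without Early library 1, 13, 5 and 4 passed, beside 0.525%, 0.391% and 0.473% of all listings.

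Late against Early sets, by the group names, a later stage against the earlier one. The mean asinh score was higher in Late for 326 of the recurrent fragments and lower for 333, with a median difference of -0.02. The fragments of Pnmal2, Lekr1 and Adamtsl2 were scored in every Late library and in no Early library. That of Pnmal2, on chromosome 7 from 17513028 to 17526506, had 56, 76, 614 and 357 in Late and was also scored in Basal, at 393 and 238 in libraries 1 and 2. That of Adamtsl2, on chromosome 2 from 27078872 to 27091126, had 25, 40, 493 and 356 in Late and 60, 45 and 12 in Basal. That of Myo5c, an unconventional myosin gene, had 26, 17, 742 and 509 in Late and none in Early.

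The fragments of Zhx1, a zinc finger and homeobox repressor gene, and Kpnb1, which encodes the nuclear import receptor importin beta, were scored in no Late library and in every Early library. That of Zhx1, on chromosome 15 from 57891154 to 57902090, had 324, 330, 431 and 279 in Early, and 1007 and 1240 in Reactivated libraries 3 and 4. That of Kpnb1 had 87, 222, 742 and 379 in Early. Those of Rhobtb3 and Slc26a8 had 491, 144, 1188 and 617 or 82, 1128, 283 and 138 in Early and likewise none in Late. Every Late library was above every Early library in 20 recurrent fragments (3.03%) and below in 11 (1.67%), beside 0.286% and 0.0605% of all listings. Here too a fragment in fewer libraries can rarely meet this, so the shares are not comparable.

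By limma, 0 of the 659 passed (0% of all listings), with 34 (5.16%) at an unadjusted p under 0.05, beside 15.1% of all listings. With each library set as a single mean, 0 of the 659 had an unadjusted p under 0.05 in this comparison. The difference was 5.86 ± 2.24 (standard error) for Pnmal2 and -6.51 ± 2.37 for Zhx1, and all 8 fragments named for this comparison had an adjusted p of 0.276 by limma. Adamtsl2, with a difference of 5.44, passed without the variance trend, without Reactivated libraries 1 and 2, without Basal library 3 and without Early library 1. The counts of recurrent fragments in these 4 cases were 2, 7, 15 and 4, beside 0.157%, 0.173%, 0.193% and 0.256% of all listings. Fragments of Pnmal2, Lekr1 and Kpnb1 also passed without Basal library 3, and those of Rhobtb3, Zhx1 and Slc26a8 without Reactivated libraries 1 and 2.

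Set beside Late, the Reactivated group stands, by its name, for a renewed exposure. Here Reactivated libraries 1 and 2 scored few fragments, so that a fragment without a score there lowers the Reactivated mean whatever libraries 3 and 4 hold. The mean asinh score was higher in Reactivated for 371 of the recurrent fragments and lower for 281, with a median difference of 0.32. Another Zfp687 fragment, on chromosome 3 from 94831847 to 94835629, had 6423 and 6560 in Reactivated libraries 3 and 4 and no score in Late, and 746 and 440 in Basal libraries 1 and 2. The fragment of Atp6v1a, which encodes a subunit of the proton pump that acidifies vesicles, on chromosome 16 from 44142518 to 44143248, had 5753 and 6036 in Reactivated libraries 3 and 4 and none in Late. Those of Shfm1 and Mzt1 had 4725 and 5547 or 3878 and 5946 in the same libraries and none in Late.

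Fragments scored in no Reactivated library but in every Late library included those of Cacna2d2, which encodes an auxiliary calcium channel subunit, and Setd3, a methyltransferase gene. Cacna2d2 was scored on chromosome 9 from 107291564 to 107293457, at 1167, 2455, 810 and 914 in Late and also at 76, 768, 353 and 228 in Early. That of Setd3, on chromosome 12 from 109424309 to 109430341, had 350, 378, 1600 and 1152 in Late. That of Cldn12 had 1000 in Reactivated library 2 alone and 4168, 5049, 3448 and 2597 in Late. Every Reactivated library was below every Late library in 32 recurrent fragments (4.86%) and above in 0 (0%), beside 0.349% and 0.00275% of all listings. These shares are not comparable either, since a fragment in fewer libraries can rarely meet this.

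By limma, 0 of the 659 passed (0% of all listings), with 28 (4.25%) at an unadjusted p under 0.05, beside 26.2% of all listings. With each library set as a single mean, 0 of the 659 had an unadjusted p under 0.05 in this comparison. The difference was -7.79 ± 2.72 (standard error) for Cacna2d2, with an adjusted p of 0.141 by limma, and 4.69 ± 2.75 for Atp6v1a, with an adjusted p of 0.263 by limma. Without Reactivated libraries 1 and 2, which leaves Reactivated with a single library set, 147 recurrent fragments (22.3%) passed, beside 25.1% of all listings, 126 higher and 21 lower in Reactivated, the fragments named for this comparison among them. Without Basal library 3, without Early library 1 and without the variance trend, 15, 5 and 5 passed, all lower in Reactivated, beside 0.193%, 0.171% and 0.162% of all listings, and without Reactivated library 2, 1 did, beside 13.6%.

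**Figure D5:**
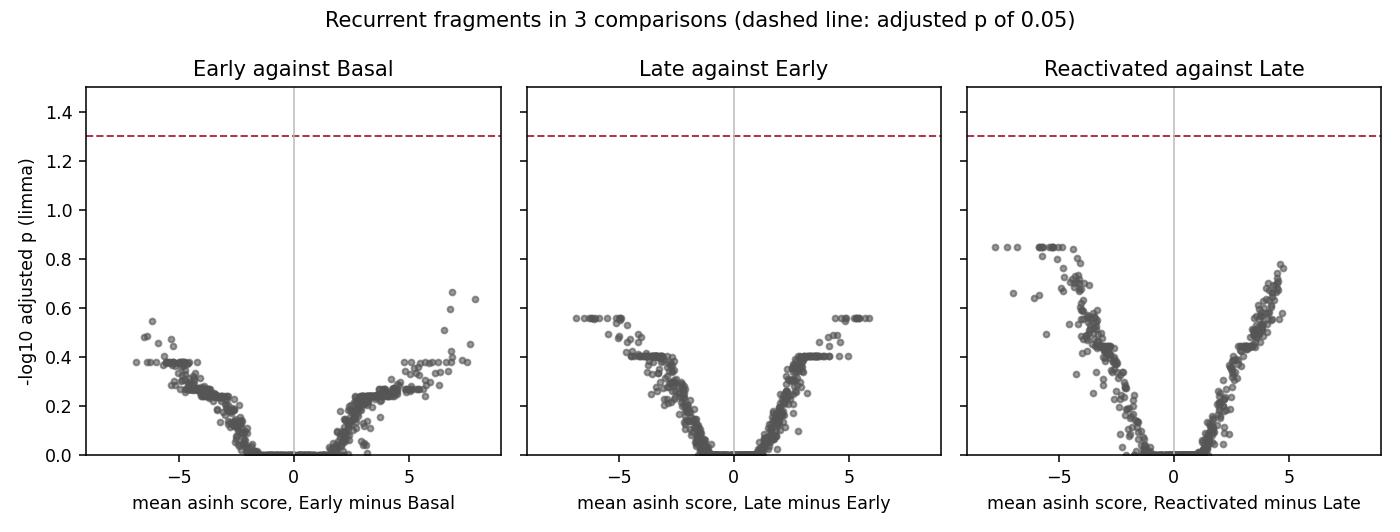
Difference in mean asinh score (x axis) and -log10 of the limma adjusted p (y axis) of the 659 recurrent fragments in Early against Basal, Late against Early and Reactivated against Late. Every point lies below the dashed line at an adjusted p of 0.05, the smallest values being 0.216, 0.276 and 0.141.

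By gene class, 12.5% of all 4429 promoters had a recurrent fragment, and the lists below, most of them drawn up by symbol prefix, are described beside that share without a test. Among 23 promoters of genes induced by neuronal activity, 3 (13.0%) had one, namely Btg2, an antiproliferative gene, Klf4, a transcription factor gene, and Nr4a3, an orphan nuclear receptor gene. One of the 2 Nr4a3 fragments, on chromosome 4 from 47832063 to 47834632, had 1930, 1229 and 23 in Basal, 35 and 28 in Early libraries 3 and 4 and 1827 and 1348 in Late libraries 3 and 4, with none in Reactivated. The Btg2 fragment had 751 and 478 in Basal libraries 1 and 2, 71 in Early library 1, 51 and 69 in Late libraries 1 and 2 and 209 and 328 in Reactivated libraries 3 and 4. Klf4 had 22 in Basal library 3, 287, 199 and 101 in Early libraries 1, 3 and 4 and 992 and 760 in Late libraries 3 and 4.

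Of voltage-gated and potassium channel genes 11 of 57 (19.3%) had a recurrent fragment, Kcna1 with the most libraries and then Hcn3, a pacemaker channel gene, with 9. Of glutamate and GABA receptor genes 4 of 29 (13.8%) did, Grik4 and Grm4 among them. The list of adhesion and guidance genes had 10 of 76 (13.2%), with Cntnap5c in 9 libraries and Pcdh11x in 8. This list rests on symbol prefixes and not on function, and the 10 include Ephx4, an epoxide hydrolase gene, and Lrrc24 and Lrrc25.

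Zinc finger and Trim genes had 15 of 157 (9.55%), and Trim28 and Zfp687 are among them. The list of chromatin modifiers, drawn up by symbol prefix and not by function, had 6 of 43 (14.0%). It held Setd3 in 10 libraries and Chd2, a remodeller gene, in 9. Ubiquitin and proteasome genes had 13 of 86 (15.1%). Among them the fragment of Psmd11, a subunit of the proteasome lid, on chromosome 11 from 80244321 to 80245864, was scored in 11 libraries, with 1906, 1110 and 19 in Basal, 647, 699, 183 and 106 in Early, 503 and 356 in Late libraries 3 and 4 and 4557 and 4948 in Reactivated libraries 3 and 4. Cul3, a ubiquitin ligase scaffold gene, had a fragment in 9 libraries. Ribosome, translation and mitochondrial genes had 11 of 108 (10.2%), with Eif4ebp2, a repressor of translation, and Mrpl15 in 8 libraries each, and solute carriers 16 of 105 (15.2%), with Slc16a11 in 10 and Slc1a1, a neuronal glutamate transporter gene, in 7.

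As for cell type markers, contacts do not measure expression. The lists are short, and few of their promoters had a recurrent fragment. Of neuronal markers 1 of 8 in the table had a recurrent fragment, Slc17a7, the vesicular glutamate transporter gene of excitatory neurons, with 158 and 117 in Basal libraries 1 and 2, 152 and 5 in Early libraries 1 and 3 and 470 and 423 in Reactivated libraries 3 and 4. Of oligodendrocyte markers 1 of 7 did, Olig2, a lineage transcription factor gene, with 192 in Early library 1, 4, 7, 635 and 533 in Late and 901 and 1018 in Reactivated libraries 3 and 4. None of 5 astrocyte, 2 microglia and 1 endothelial marker promoters had one.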

How the data were processed

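The deposited table holds, per the file headers, a score that the authors gave to the contact of a promoter with a HindIII fragment, by library (15 libraries). The build is mm9, per the submitters' processing notes. How the score was computed, filtered or normalized is not stated in what was used here. Scores are whole numbers from 2 to 13683, and 84.7% of cells hold none. Groups were taken from the sample titles, since the days in the treatment labels run on with sample order and no sample is labelled as recalled. Of the 552 promoter names, 531 matched a RefSeq symbol and 21 a synonym; names are printed as deposited.

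Limma 3.58.1 in R 4.3.3 (statmod 1.5.0) was fitted to asinh(score), 0 for no score, over all 36353 listings with no filter, a variance trend and a robust empirical Bayes step, with Benjamini-Hochberg adjustment over all listings and a threshold of 0.05. It was also run on simulated data with each library shuffled separately, so without library sets, and the exact permutations on simulated sets. These runs were checks of the code and do not measure power or error rates in these data. Python 3.11.15 served for the descriptions (pandas 2.3.3 on numpy 2.4.6), for the permutations (scipy 1.17.1) and for the plots (matplotlib 3.10.9). Named fragments were all those in 12 or more libraries, those of the 5 promoters with most recurrent fragments, the 5 smallest and 5 largest SDs, the 4 largest differences in each direction per comparison, and up to 2 per gene list. Promoters of predicted genes, microRNAs, olfactory receptors and clones were skipped. Some fragments that this rule names are not reported here. The recurrent fragments, library sets and lists were chosen with earlier results of these data known.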

Additional observations from a re-analysis of the deposited data

Results flagged for a closer look

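In 45 groups of 4 libraries examined, 4 had a library that stood apart by Dixon's ratio of gap to range above its critical value for 4 samples. Chance flags about 1 in 20 groups of continuous values, but scores were on the asinh scale with 0 for no score, so that rate does not apply here. Early library 2 held no score for the fragments of Enah, Ap1g2 and Nfxl1, while the other Early libraries did, with ratios of 0.913, 0.890 and 0.920. This library scored 143 of the 659 recurrent fragments, against 318 to 451 in the other Early libraries. For the Cldn12 fragment, Reactivated library 2 had the group's only score, 1000, with a ratio of 1, which any single score beside 3 unlisted ones gives.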

How the results depend on the processing

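Recurrent fragments passing limma numbered 0 over the 4 groups and in each of Early against Basal, Late against Early and Reactivated against Late. In that order the counts were 7, 5, 2 and 5 without the variance trend (0.55%, 0.391%, 0.157% and 0.162% of all listings) and 140, 13, 7 and 147 without Reactivated libraries 1 and 2 (25.5%, 0.525%, 0.173% and 25.1% of all listings). Leaving out 1 library gave 0 to 44, 0 to 34, 0 to 15 and 0 to 15. They were 0 on the log2 scale, after quantile normalization, with listings in 2 or more libraries, with sets as means and with the replicate number as a block. Same-numbered libraries of different groups did not deviate together (r from -0.0468 to 0.0665 over 21 pairs). With 84.7% of cells empty, a pairing by number cannot be judged from these values. The 24 differences that the naming rule chose kept their direction in 528 recomputed values, 25 of which passed. They were chosen as the largest in these data, and most set scores against none, so the kept direction supports nothing.

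With 5 or more libraries, 7 or more libraries and 5 or more sets as the limit there were 1487, 325 and 182 recurrent fragments, 1047, 294 and 169 promoters, and median gaps of 34.4, 10.5 and 8.13 kb. With 5 or more sets, 120 were scored in all 4 groups. Leaving out 1 library gave 433 to 659 fragments (433 to 439 without Late or Reactivated library 3 or 4), 378 to 552 promoters, gaps of 12.3 to 56.8 kb (12.3 kb without Basal library 1, 56.8 kb without Reactivated library 3 or 4) and 107 to 201 fragments in all 4 groups (107 without Basal library 3). The median SD was 1.36 to 1.42 without 1 library, and 20.8 on the scale of percentile ranks. Without centring, the score distance within minus across groups was 0.12 (exact permutation p = 0.741), and without Reactivated libraries 1 and 2 the ratio of shared fragments within minus across groups, a description only, was 0.12; the cause was not tested. Unknown read depth and few separate sets limit every value.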
